A study of Mus musculus with 8 samples.

Results

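Alveolar macrophages from lungs with late tumors, labelled day 35 (d35), were compared with alveolar macrophages of naive mice over every gene of the deposited expression table. The comparison used 6 of the series' 8 libraries, 3 labelled d35 and 3 labelled naive, and 11273 of the table's 12701 genes passed the filter on low values. All mice were C57BL/6, and naive mice, described as wild type, carried no tumor. The tumor was KP, a mouse lung cancer line, and some injections may have used KP cells marked with GFP. Its cells were grown in culture and injected into the tail vein, so the tumors were seeded from the blood and did not start in the lung epithelium. Per the labels, 20000 tissue-resident (alveolar) macrophages were sorted by flow cytometry, and 1 ng of their RNA was made into cDNA with a low-input kit. The protocol gives a tumor growth period of 15 to 30 days, which ends before the day named by the d35 label, so the exact time is uncertain. The sources used here do not give age, sex or whether a library came from 1 mouse or a pool. P-values therefore measure the spread between libraries within groups, the 2 labelled d15 included, and that spread may be technical.

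Alveolar macrophages live in the airspaces, where they take up surfactant lipids, inhaled particles and dead cells. They renew themselves locally and depend on the growth factor GM-CSF and the transcription factor PPAR gamma. Macrophages in tumors are known to secrete proteases and chemokines, to present antigen and to take up lipid and cell debris. The comparison asks which transcripts of the resident cells differ in a lung with late tumors.

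Each value below is a scaled CPM (counts per 1e6 reads of a scaled library size, as the authors deposited it), and the values of a group are given in the order of replicates 1, 2 and 3. Recovered reads per library lay between 27.5 and 38.6 M (1e6 reads) in the naive and between 30.8 and 39.6 M in the d35 group. On the first principal component of the 6 libraries, which held 66.3% of the variance, naive libraries sat at -25.1, -23.5 and -22.3 and d35 libraries at 32.7, 10.7 and 27.4. The groups did not overlap on it, and d35 replicate 2 lay nearest the naive libraries. The median SD of log2 values over genes was 0.11 in the naive and 0.14 in the d35 group. The sorted cells carried alveolar macrophage transcripts in both groups. Siglecf, a surface lectin of alveolar macrophages, was at 750.1, 679 and 729 in naive and 557, 644 and 570.3 in d35 libraries. The integrin gene Itgax was at 849, 845 and 830.2 in naive and 969, 920.1 and 818 in d35 libraries, and its groups overlapped. The macrophage lysosomal gene Cd68 was at 867, 957 and 1068 in naive and 1413, 1348 and 1440.4 in d35 libraries (log2 difference 0.54, adjusted p = 0.00383 in limma). Its difference was 0.25 (adjusted p = 0.0662) once the trend of log2 values on transcript length was removed in each library. Here and below, transcript length means the merged length of all annotated exons of a gene, not of the transcript expressed.

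Many genes gained expression in the late tumor group, and losses were fewer and smaller. Of the 11273 genes tested, 1824 changed (16.2%), with 1112 that rose (9.86%) and 712 that fell (6.32%), by limma on log2(value + 1) at a Benjamini-Hochberg adjusted p under 0.05. The fit took its spread from all 8 libraries, and a fit of the 6 compared libraries alone called 1386 genes. Rises of at least 2-fold numbered 270 (2.4%) and falls of that size 57 (0.506%). At least 4-fold rises were seen for 76 genes, at least 8-fold rises for 30, and no gene fell 4-fold. The median log2 difference over all tested genes was -0.0022. The d35 libraries lay wholly above the naive libraries for 20.7% of genes and wholly below for 15.9%.

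The large rises were not equally strong in the 3 d35 libraries. Over the 270 genes the median log2 excess over the naive mean was 1.96 in d35 replicate 1, 1.08 in replicate 2 and 1.63 in replicate 3. Replicate 2 was the lowest of the 3 for 232 of the 270 genes, and replicate 1 the highest for 206. For the 57 large falls the medians were closer together, at -1.26, -1.04 and -1.13. When 1 library was left out, the count of changed genes was 900 on dropping naive replicate 1, 635 on dropping naive replicate 2, 967 on dropping naive replicate 3, 1035 on dropping d35 replicate 1 and 995 on dropping d35 replicate 3. The share of rises among changed genes, 61.0%, was 50.7% after quantile normalization and 53.2% after removal of the trend with transcript length. For gene lists, counts are also given over the other settings, which are the alternatives that keep all 6 libraries of the comparison. Every list count stands beside the 9.86% of all tested genes that rose and the 6.32% that fell.

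**Figure D1:**
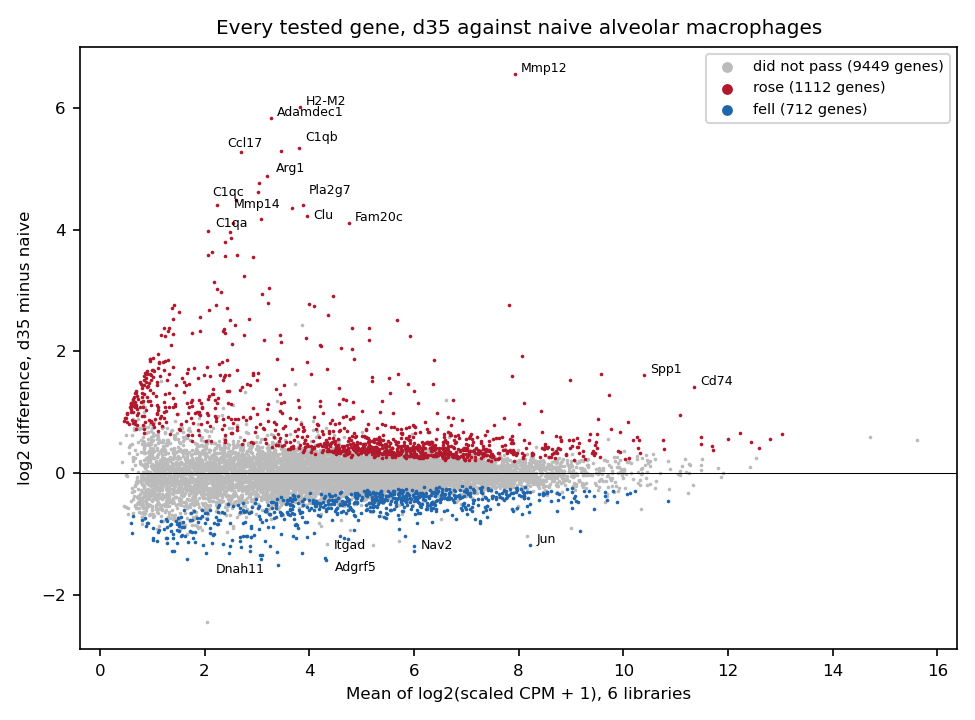
Each point is 1 of 11273 tested genes, with the mean of log2(scaled CPM + 1) over the 6 naive and d35 libraries on the x axis and the log2 difference, d35 minus naive, on the y axis. Red marks the 1112 genes that rose and blue the 712 that fell at a limma adjusted p under 0.05, from -1.50 (Dnah11) to 6.55 (Mmp12).

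**Figure D2:**
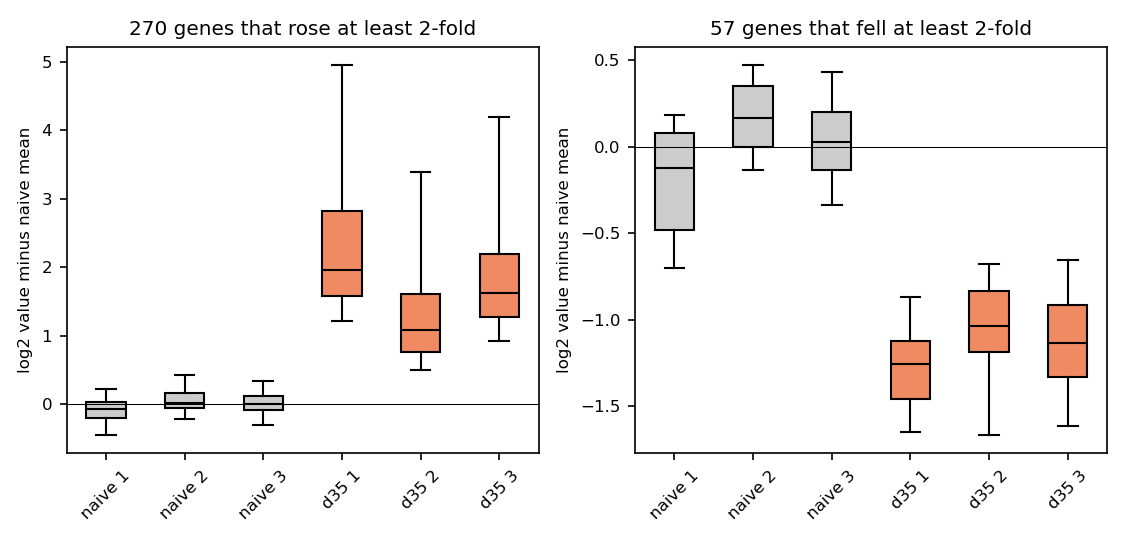
Boxes give, for each library, the log2 value minus the naive mean of the same gene, over the 270 genes that rose (left) and the 57 that fell (right) at least 2-fold, with the median as line and the quartiles as box. Among the rises d35 replicate 2 had the smallest median of the d35 libraries, 1.08.

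Among genes past a mean log2 value of 3, the 12 largest rises were in metalloprotease, complement, chemokine, arginase, MHC and lipid-related genes. Mmp12, which encodes the macrophage elastase that cuts elastin and other matrix proteins, was at 18.2, 34.3 and 22.6 in naive and 4258, 1476 and 2089 in d35 libraries. Its d35 mean was 104 times the naive mean, with a log2 difference of 6.55 ± 0.32 (SE), and every d35 library stood far above every naive one. H2-M2, a nonclassical MHC class I gene on chromosome 17 at 37480851 to 37483552, was at 0.588, 0.753 and 0.972 in naive and 243, 53.5 and 108 in d35 libraries (log2 difference 6.01, adjusted p = 1.99e-05). Adamdec1, which encodes a secreted metalloprotease on chromosome 14 at 68563380 to 68582095, had no read in naive replicate 1 and stood at 0.408 and 0.442 in naive replicates 2 and 3, against 88.4, 36.4 and 112 in the d35 libraries (log2 difference 5.83). These genes came from low naive levels, and in each of them the d35 libraries differed among themselves by more than 2-fold.

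The 3 chains of complement C1q, the recognition molecule that binds immune complexes and dying cells, rose together. C1qa was at 0.454, 1.32 and 1.33 in naive and 67.8, 17.7 and 35.5 in d35 libraries (log2 difference 4.18, adjusted p = 0.000215). C1qb was at 0.454, 1.77 and 1.57 in naive and 156, 43.8 and 98.5 in d35 libraries (log2 difference 5.35, adjusted p = 4.34e-05). C1qc was at 0.286, 0.902 and 0.795 in naive and 76, 19.3 and 40.6 in d35 libraries (log2 difference 4.62, adjusted p = 0.000103). For each chain replicate 1 was the highest and replicate 2 the lowest d35 library, and all were above every naive library. The genes lie side by side on the minus strand of chromosome 4, C1qb at 136880129 to 136886187, C1qc at 136889804 to 136893065 and C1qa at 136895917 to 136898803 (mm10, GENCODE M21). They are also monocyte and interstitial macrophage markers, and the summed values given further on contain them. The part of monocytes and interstitial macrophages in the C1q rise was not tested.

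The chemokine gene Ccl17, whose product attracts CCR4-bearing T cells, was at 0.488, 0.704 and 1.15 in naive and 102, 42.5 and 72.4 in d35 libraries. Arg1, which encodes the arginine-degrading enzyme arginase 1, was at 0.723, 0.679 and 0.689 in naive and 106, 27.1 and 40.2 in d35 libraries. The naive values of Arg1 were nearly equal, while d35 replicate 1 stood well above the other late libraries. Pla2g7, which encodes a lipoprotein-associated phospholipase, was at 2.37, 2.53 and 1.71 in naive and 134, 38.6 and 57.2 in d35 libraries. Mmp14, which encodes a membrane-bound collagenase, was at 0.925, 2.93 and 1.96 in naive and 94.9, 28.7 and 67.4 in d35 libraries. Clusterin (Clu), a secreted chaperone, was at 2.84, 2.93 and 2.14 in naive and 101, 25.7 and 110.2 in d35 libraries, the 1 gene of these with its highest value in d35 replicate 3. Fam20c, which encodes a Golgi kinase of secreted proteins on chromosome 5 at 138754514 to 138810077, was at 3.51, 11.5 and 3.87 in naive and 187, 65.2 and 111 in d35 libraries. In all 12 genes the groups did not overlap, which was a condition for naming them. The 12 calls held under each of the 22 alternatives run.

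**Figure D3:**
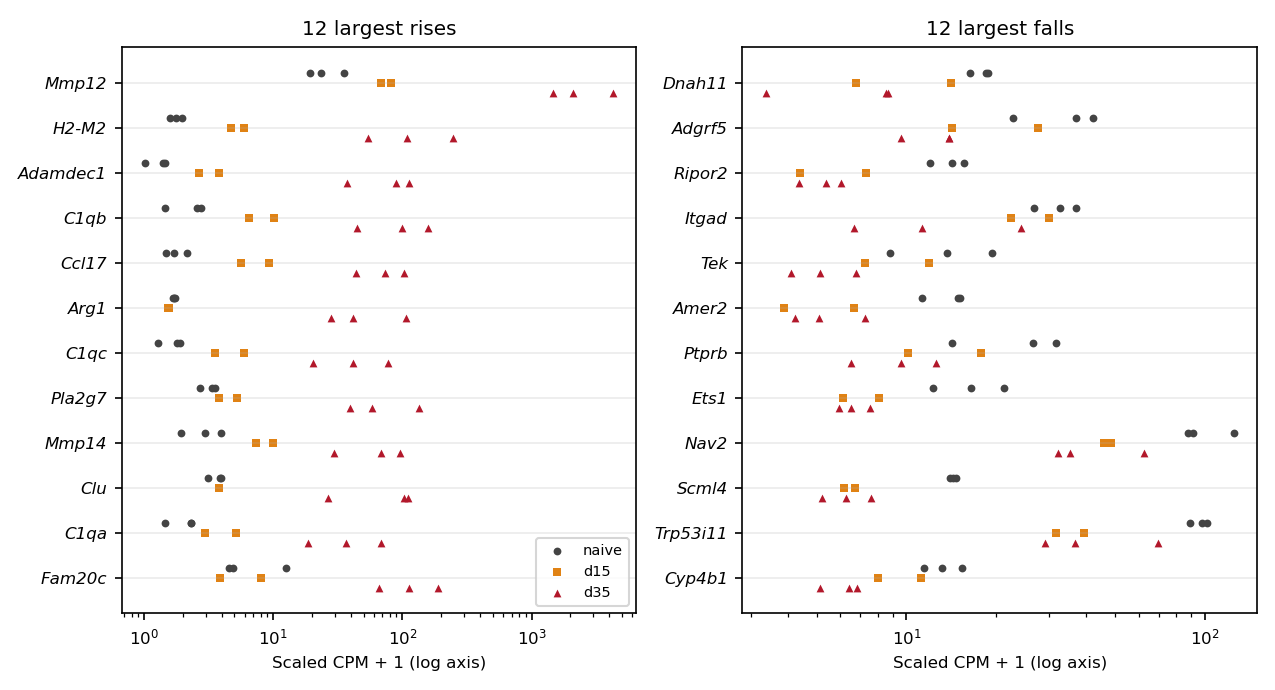
Scaled CPM + 1 on a log axis for each naive (black circles), d15 (orange squares) and d35 (red triangles) library, for the 12 largest rises (left) and the 12 largest falls (right) by the naming rule. In all 24 genes the d35 points lie wholly above or wholly below the naive points, as the naming rule required, and Mmp12 spans 18.2 to 4258.

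Upstream sequences are shown for 3 of the leading genes, Mmp12 and the neighbours C1qb and C1qc, because each holds the letters of a motif of PU.1, a transcription factor required for macrophage development. They come from RefSeq promoter windows (GRCm38.p6), are read 5′ to 3′ on the gene's strand and stop before the GENCODE gene start. Capitals mark the match, which in all 3 is the reverse complement of AGGAAGT.
Mmp12, chr9:7344147-7344380, plus strand: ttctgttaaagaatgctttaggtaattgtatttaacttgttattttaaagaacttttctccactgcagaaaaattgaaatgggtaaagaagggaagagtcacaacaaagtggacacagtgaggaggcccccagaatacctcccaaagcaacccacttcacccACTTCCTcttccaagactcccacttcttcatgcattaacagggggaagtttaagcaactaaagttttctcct
C1qb, chr4:136886201-136886450, minus strand: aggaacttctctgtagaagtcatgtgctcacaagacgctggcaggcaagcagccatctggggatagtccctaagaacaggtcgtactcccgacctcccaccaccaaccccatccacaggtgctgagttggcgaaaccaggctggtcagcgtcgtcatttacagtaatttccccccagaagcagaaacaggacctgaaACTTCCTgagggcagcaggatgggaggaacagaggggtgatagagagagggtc
C1qc, chr4:136893066-136893164, minus strand: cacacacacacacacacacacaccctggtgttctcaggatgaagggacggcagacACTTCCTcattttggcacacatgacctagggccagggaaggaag
Windows of the 250 bases before each start were searched on both strands. AGGAAGT was found in 15.5% of the 200 genes with a window among those that rose at least 2-fold and in 2.7% of the 37 among those that fell at least 2-fold. Of the 12 largest rises 8 had a window, and 3 of these held AGGAAGT. All 9047 tested genes with a window held it in 9.4% and all 32851 windows in 7.7%. A gene counted once if any of its windows held a motif, so shares of genes and of windows are not like measures. The AP-1 motif TGANTCA was found in 12% of the rises, 5.4% of the falls, 5.5% of tested genes and 6.7% of all windows. The E-box CACGTG was found in 8.0% of the rises, none of the 37 falls, 10.0% of tested genes and 6.0% of all windows. A match of letters is a description of these windows and says nothing about binding.

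The 12 largest falls were smaller than the rises and came from genes of several kinds. Ripor2, which encodes an inhibitor of the GTPase RhoA, was at 14.6, 13.2 and 11 in naive and 5.05, 3.36 and 4.35 in d35 libraries (log2 difference -1.41, adjusted p = 0.00245). Amer2, a Wnt pathway regulator gene, was at 14.1, 10.3 and 13.9 in naive and 4.08, 3.24 and 6.26 in d35 libraries. Ets1, which encodes a transcription factor of lymphoid and endothelial cells, was at 11.3, 20.2 and 15.5 in naive and 5.54, 6.53 and 4.95 in d35 libraries (log2 difference -1.29). In these 3 genes the groups lay well apart. Nav2, of the neuron navigator family, was at 86.9, 124 and 90.2 in naive and 31.1, 61.5 and 34.4 in d35 libraries. Trp53i11 was at 101, 88 and 97 in naive and 35.9, 28.3 and 68.8 in d35 libraries, and Scml4, of the polycomb group, at 13, 13.6 and 13.3 in naive and 5.26, 6.59 and 4.22 in d35 libraries. The cytochrome gene Cyp4b1 was at 12.1, 14.3 and 10.4 in naive and 4.11, 5.4 and 5.84 in d35 libraries. Scml4 had the tightest naive values of the 12. Itgad, which encodes the integrin alpha D chain, was at 36, 25.8 and 31.8 in naive and 10.3, 5.64 and 23.2 in d35 libraries. Dnah11, an axonemal dynein gene, was at 17.4, 15.3 and 17.8 in naive and 2.38, 7.65 and 7.52 in d35 libraries. Dnah11 was not called without naive replicate 1, 2 or 3 (adjusted p = 0.0583, 0.0603 and 0.0599), and Itgad was not called without naive replicate 1, 2 or 3 or d35 replicate 1 (adjusted p = 0.0885, 0.0667, 0.0757 and 0.0714).

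The other 3 of the 12 falls, Adgrf5, Tek and Ptprb, are genes of vascular endothelium. Adgrf5, which encodes an adhesion receptor, was at 21.8, 41.2 and 36.1 in naive and 8.59, 12.9 and 12.9 in d35 libraries. Tek, the angiopoietin receptor gene, was at 7.78, 18.4 and 12.7 in naive and 4.11, 5.77 and 3.1 in d35 libraries. Ptprb, which encodes an endothelial phosphatase, was at 13.2, 30.8 and 25.6 in naive and 8.62, 11.6 and 5.5 in d35 libraries. Tek was not called without naive replicate 2 (adjusted p = 0.0618), and Ptprb was not called without naive replicate 2 or 3 or d35 replicate 1 or 3 (adjusted p = 0.095, 0.0763, 0.0522 and 0.077). Endothelial markers as a list summed to 301, 396 and 351 in naive and 207, 239 and 185 in d35 libraries. Calcrl, described further on, made up a large part of these sums. In bulk RNA, fewer cells of a type and less RNA per cell cannot be told apart, and the part of endothelial cells in these falls was not tested.

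Proteases that cut extracellular matrix rose in 7 of 17 tested list members, none fell, and the list median was 0.28. Besides Mmp12 and Mmp14, Adam8, which encodes a membrane-bound sheddase of leukocytes, was at 0.286, 0.333 and 0.23 in naive and 62.2, 18.5 and 18 in d35 libraries (log2 difference 4.48, adjusted p = 8.54e-05). Mmp13, a collagenase gene on the same chromosome as Mmp12, had 1, 0 and 2 reads in the naive libraries and values of 33.5, 11.2 and 9.9 in the d35 libraries. The cysteine protease gene Ctsk, already abundant in naive cells, was at 451, 600.4 and 583 in naive and 1645, 1007 and 1403 in d35 libraries (log2 difference 1.29). Mmp19 was at 83.2, 85.7 and 68.1 in naive and 179.9, 127 and 113 in d35 libraries and rose by 0.80 on the log2 scale. Mmp2, a gelatinase gene, rose by 1.09 and was not called without naive replicate 2 or 3 or d35 replicate 3 (adjusted p = 0.0615, 0.0504 and 0.0505). The surface sheddase genes Adam9, Adam10 and Adam17 had log2 differences of 0.01, 0.14 and 0.10 and did not pass. Mmp9, the other gelatinase gene, had a difference of 1.51 that did not pass either (adjusted p = 0.0934).

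Matrix proteins and protease inhibitors rose in 9 of 19 and none fell, with a median of 0.32. Osteopontin (Spp1), a secreted phosphoprotein bound by integrins and CD44, was at 713, 893 and 723 in naive and 3031, 2140.3 and 2048 in d35 libraries (log2 difference 1.62 ± 0.16 SE). Lgals3, which encodes galectin-3, was at 1369, 1591 and 1651 in naive and 1968, 1988 and 2079.7 in d35 libraries (log2 difference 0.39) and was not called without naive replicate 1 (adjusted p = 0.0529), and its log2 difference was 0.18 with the length trend removed (adjusted p = 0.154). The third was Fam20c. The other rises, Ecm1, Timp1, Fn1, Cst3, Thbs1 and Lgals1, had main adjusted p-values between 0.0194 and 0.0376. Each of these 6 was not called without at least 4 of the single libraries, with adjusted p-values between 0.0509 (Ecm1) and 0.122 (Lgals1). The count of rises was 3 on dropping naive replicate 1, 2 or 3, 5 on dropping d35 replicate 1 and 4 on dropping d35 replicate 3, and over the other settings 5 to 10 rose and 0 or 1 fell. With the length trend removed Timp1, Cst3 and Lgals1 had log2 differences of 0.57, 0.15 and 0.0028 and were not called (adjusted p = 0.136, 0.246 and 0.982). Vcan, which encodes the proteoglycan versican, had a log2 difference of -0.69 and did not pass.

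Genes of multinucleated, osteoclast-like macrophages rose in 4 of 13, and the 9 others did not pass (median 0.12). Dcstamp and Ocstamp encode membrane proteins needed for the fusion of osteoclasts and giant cells. Dcstamp had 2, 0 and 0 reads in the naive libraries and values of 75.8, 23 and 34.5 in the d35 libraries. Ocstamp was at 0.488, 0.482 and 0.265 in naive and 35.1, 14.3 and 25.1 in d35 libraries. Acp5, which encodes tartrate-resistant acid phosphatase, was at 189.9, 168 and 195 in naive and 551, 328 and 388 in d35 libraries (log2 difference 1.16), and Ctsk was the fourth. The osteoclast receptor gene Tnfrsf11a (RANK) had a log2 difference of -0.19, the osteoclast regulator Nfatc1 of -0.10 and the proton pump subunit gene Atp6v0d2 of 0.12. Without single libraries 4 or 5 members were called, and after quantile normalization 2 fell.

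Chemokine genes rose in 9 of 16 and none fell, with a median of 0.81. Ccl24, which encodes an attractant of eosinophils, had 1 read over the 3 naive libraries and values of 30.6, 15.8 and 18.4 in the d35 libraries. Ccl9, which encodes a ligand of CCR1, was at 69.1, 115 and 77.2 in naive and 835, 479 and 501 in d35 libraries (log2 difference 2.77, adjusted p = 5.79e-05). Cxcl16, which encodes a membrane-anchored chemokine, was at 4.79, 8.91 and 7.86 in naive and 95.8, 33.1 and 63.8 in d35 libraries (log2 difference 2.91). In each of these genes d35 replicate 1 was the highest library. The interferon-induced Cxcl9, which draws CXCR3-bearing T cells, was at 2.07, 2.33 and 3.2 in naive and 28.4, 11.2 and 38.9 in d35 libraries, with its highest value in d35 replicate 3. Ccl4, which encodes MIP-1 beta, was at 1.6, 1.62 and 1.78 in naive and 11.9, 4.91 and 10.2 in d35 libraries. Ccl6, an abundant macrophage chemokine, was at 5574, 6007 and 6044 in naive and 8839, 9082 and 8057 in d35 libraries (log2 difference 0.56). After quantile normalization, which sets each value by its rank in the library, the log2 difference of Ccl6 was 0.06 (adjusted p = 0.634). It was 0.34 with the length trend removed (adjusted p = 0.0834), and Ccl6 was called in neither. The neutrophil attractants Cxcl1, Cxcl2 and Cxcl3 had log2 differences of 0.23, -0.25 and 0.74 and the monocyte attractant Ccl2 of 0.51, and none of these passed.

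Cytokine and growth factor genes rose in 6 of 22 and none fell, with a median of 0.09, and over the other settings 2 to 6 rose, with 2 when only genes with a mean value of at least 5 were tested. Inhba, which encodes the activin A subunit, was at 0.286, 0.852 and 0.866 in naive and 22.2, 6.8 and 12.2 in d35 libraries (log2 difference 3.02, adjusted p = 0.000496). Insulin-like growth factor 1 (Igf1) was at 22, 30.3 and 26.2 in naive and 119, 78.6 and 51.6 in d35 libraries. The macrophage growth factor gene Csf1 was at 1.5, 1.54 and 1.82 in naive and 15.4, 4.67 and 7.02 in d35 libraries. Ebi3, which encodes a shared chain of cytokine dimers, was at 0.387, 0.63 and 0.477 in naive and 2.79, 1.66 and 1.92 in d35 libraries, a rise between low values. The inflammatory cytokine genes did not pass, with log2 differences of 1.21 for Il1b (adjusted p = 0.0784), 0.21 for Il6 and -1.11 for Tnf. Tgfb1 had a difference of 0.04 and Vegfa of -0.06.

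Complement genes rose in 7 of 15 and 1 fell, with a median of 0.80. Besides the C1q chains, the C3a receptor gene C3ar1 was at 0.319, 0.828 and 1.4 in naive and 23.1, 5.83 and 10.1 in d35 libraries. Itgam, which encodes the CD11b chain of complement receptor 3 and is low in resident alveolar macrophages, was at 1.87, 2.04 and 2.07 in naive and 11.9, 5.28 and 7.86 in d35 libraries (log2 difference 1.58, adjusted p = 0.00336). In these genes d35 replicate 2 was the lowest of the late libraries and above each naive library. The central component C3 was at 201, 233 and 157 in naive and 446, 294 and 300.4 in d35 libraries and was not called without naive replicate 1 or 3 or d35 replicate 1 (adjusted p = 0.0513, 0.0678 and 0.0521). The C5a receptor gene C5ar2 fell, at 30.01, 24.2 and 22.3 in naive and 18, 19.7 and 17.9 in d35 libraries, and was not called without naive replicate 1 or 2 or d35 replicate 1 or 3 (adjusted p = 0.104, 0.079, 0.0827 and 0.0833), and no member fell in a fit of the 6 libraries alone.

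MHC class II genes, whose products present peptides to CD4+ T cells, rose in 8 of 13 and none fell, with a median of 0.56. H2-Aa was at 246, 274 and 378 in naive and 1121, 506 and 1096 in d35 libraries (log2 difference 1.53). H2-Ab1 was at 369, 412 and 540.1 in naive and 1748, 772 and 1791 in d35 libraries (log2 difference 1.62). H2-Eb1 was at 115, 127 and 174 in naive and 694, 297 and 692 in d35 libraries (log2 difference 1.93). In these 3 chain genes d35 replicate 2 was the lowest late library, at less than 1 log2 unit above the highest naive one. The invariant chain gene Cd74 was at 1423, 1506 and 1927 in naive and 5098, 2626 and 5828 in d35 libraries. Ciita, which encodes the class II transactivator, was at 20.2, 19.97 and 19.6 in naive and 45.3, 25.1 and 49.3 in d35 libraries and was not called without naive replicate 2 (adjusted p = 0.0559). H2-DMb1, a peptide loading gene, rose by 0.90. The genes H2-Oa, H2-Ob and Rfx5 had log2 differences of 0.41, -0.57 and -0.20 and did not pass. Markers of dendritic cells, which carry much class II, summed to 32.2, 38.8 and 35.7 in naive and 39, 34.3 and 37.1 in d35 libraries, and none of the 8 tested passed, with log2 differences of 0.34 for Clec9a and 0.18 for Zbtb46.

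Class I and peptide loading genes rose in 12 of 18 and none fell, with a median of 0.58, and 10 to 13 were called without single libraries. Beta-2-microglobulin (B2m), the light chain of classical class I molecules, was at 1398, 1635 and 1684 in naive and 3237, 2423 and 3536 in d35 libraries (log2 difference 0.95, adjusted p = 0.00207), and its difference was 0.58 with the length trend removed (adjusted p = 0.00438). The heavy chain gene H2-K1 was at 817, 812 and 810.4 in naive and 1623, 1294 and 1477 in d35 libraries, and its naive values were nearly equal. The peptide transporter gene Tap1 was at 48.6, 44.6 and 43.3 in naive and 87.3, 65.4 and 80.7 in d35 libraries. The immunoproteasome subunit genes Psmb8 and Psmb9 rose by 0.63 and 0.58, and the class I transactivator Nlrc5 by 1.08. H2-Q7 and H2-Q6 rose by 1.88 and 1.32. Class I heavy chains have near-identical copies and the sources used here do not give how shared reads were counted, so values of single heavy-chain genes are uncertain.

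Interferon gamma induced genes rose in 10 of 15 and none fell, with a median of 0.85, and over the other settings 0 or 1 fell. The GTPase genes of this list encode proteins that attack pathogen vacuoles. Gbp2 was at 38.5, 36.9 and 41.3 in naive and 118, 73.7 and 119 in d35 libraries (log2 difference 1.36). Gbp3 was at 8.02, 11.9 and 11.2 in naive and 49.2, 21.6 and 43 in d35 libraries. Iigp1 was at 0.756, 1.25 and 2.24 in naive and 16.8, 5.4 and 20.3 in d35 libraries, with d35 replicate 2 well below the other late libraries. Irgm1, Igtp and the transcription factor Irf1 rose by 0.76, 0.59 and 0.73.

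Type I interferon stimulated genes rose in 5 of 18 with a median of 0.70, and none fell. The count was 2 on dropping naive replicate 1, 2 or 3 or d35 replicate 1, 8 on dropping d35 replicate 2 and 3 on dropping d35 replicate 3, and 2 to 6 over the other settings. Oas1a, which encodes an oligoadenylate synthetase, was at 15.8, 19.7 and 22.3 in naive and 44.8, 33 and 32.1 in d35 libraries, and the related Oasl2 at 1.8, 3.94 and 4.68 in naive and 20.9, 8.63 and 10.3 in d35 libraries. Both calls held in every alternative that tested them. Ifit1, Ifit3, Irf7 and Rsad2, sensitive targets of type I interferon, had log2 differences of 0.46, 0.71, 0.50 and 0.64 and did not pass. No test compared the interferon lists with each other.

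Of 19 costimulation and checkpoint genes 1 rose and none fell, with a median of 0.11. That is 5.26% called, below the 16.2% of all tested genes. Ido1, which encodes a tryptophan-degrading enzyme, had 0 reads in naive replicate 1 and stood at 0.259 and 0.0884 in naive replicates 2 and 3, against 2.9, 1.66 and 3.6 in the d35 libraries. PD-L1 (Cd274) had a log2 difference of -0.29 (adjusted p = 0.091), Cd80 of -0.0019, Cd86 of 0.55 and Cd83 of -0.41 (adjusted p = 0.0532). The rises numbered 2 on dropping naive replicate 3 or d35 replicate 2, and 2 genes were called lower without d35 replicate 2. Over the other settings 0 to 2 rose and 0 to 2 fell, with 2 falls by DESeq2, after quantile normalization, in a fit of the 6 libraries alone and with the length trend removed, so which direction had more calls depended on the setting.

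Arginine and alternative activation genes rose in 7 of 17 and none fell, with a median of 0.21. After Arg1, the transcription factor gene Irf4 was at 4.02, 5.37 and 4.86 in naive and 11.6, 8.93 and 10.2 in d35 libraries (log2 difference 0.97). The interleukin-4 receptor chain gene Il4ra was at 215, 203 and 165 in naive and 296, 277 and 272 in d35 libraries. Arg2, the mitochondrial arginase gene, rose by 0.96 and was not called without naive replicate 3 or d35 replicate 1 or 3 (adjusted p = 0.0752, 0.0807 and 0.076), nor with the length trend removed (adjusted p = 0.087). The alternative activation genes Retnla, Mrc1 and Clec10a had log2 differences of -0.02, -0.19 and -0.07 and did not pass, and Chil3 of 0.59 (adjusted p = 0.0799). The count of rises was 4 on dropping naive replicate 2 or 3 or d35 replicate 3 and 3 on dropping d35 replicate 1, and 0 or 1 fell over the other settings. Both Chil3 and its copy Chil4 can share reads.

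Genes of lipid-associated macrophages, a state seen where macrophages take up much lipid, rose in 10 of 16 and none fell, with a median of 0.48. Trem2, the lipid receptor gene of this state, was at 31.5, 33.3 and 36.5 in naive and 94.3, 59.8 and 54.5 in d35 libraries (log2 difference 0.98, adjusted p = 0.00541). The tetraspanin gene Cd63 was at 112, 146 and 148 in naive and 517, 324 and 402 in d35 libraries. The scavenger receptor gene Msr1 was at 22.5, 31.8 and 27.2 in naive and 214, 83.5 and 127 in d35 libraries (log2 difference 2.25). In these 3 genes d35 replicate 1 was highest and the groups did not overlap. The fatty acid binding protein gene Fabp5 was at 111, 144 and 142 in naive and 255, 215 and 177 in d35 libraries. Apoe was at 46.1, 41.5 and 42 in naive and 373, 81.7 and 131 in d35 libraries, with d35 replicate 1 more than 2-fold above the other late libraries, and was not called without naive replicate 2 (adjusted p = 0.0574). Gpnmb rose by 0.52. The alveolar lipid genes Fabp4, Lpl, Cd36 and Plin2 had log2 differences of 0.07, -0.00078, -0.09 and 0.04 and did not pass. Without single libraries 7 to 10 members were called.

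Lysosomal hydrolase and proton pump genes rose in 12 of 30 and none fell, with a median of 0.21. Cathepsin E (Ctse), an aspartic protease gene, was at 0.0504, 0.161 and 0.053 in naive and 4.95, 3.21 and 6.37 in d35 libraries (log2 difference 2.39). Cathepsin B (Ctsb) was at 2244, 2328 and 2378 in naive and 4355, 3058 and 3249 in d35 libraries. Cathepsin L (Ctsl) was at 238, 298 and 291 in naive and 522, 381 and 427 in d35 libraries, and cathepsin Z (Ctsz) at 981, 1059 and 1078 in naive and 1735, 1374 and 1463 in d35 libraries. These 3 abundant protease transcripts rose by 0.60, 0.68 and 0.55. Ctsz was not called with the length trend removed, at 0.28 (adjusted p = 0.0762). The sterol carrier gene Npc2 rose by 0.41 and the pump subunit genes Atp6v0e, Atp6v1d and Atp6v1e1 by 0.40, 0.36 and 0.36. Lamp1, Lamp2 and the lysosomal regulators Tfeb and Tfe3 had log2 differences of 0.20, 0.17, -0.17 and 0.15 and did not pass.

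Fc and phagocytic receptor genes rose in 9 of 21 and fell in 2, with a median of 0.18. The Fc gamma receptor gene Fcgr3 was at 535, 521 and 517 in naive and 899, 704 and 863 in d35 libraries, and its log2 difference of 0.64 was 0.42 with the length trend removed (adjusted p = 0.0104). Clec4n, which encodes the fungal sensor dectin-2, was at 508, 547 and 556 in naive and 1155, 928 and 933 in d35 libraries (log2 difference 0.90, adjusted p = 0.000301). The scavenger collectin gene Colec12 was at 51, 72.7 and 90.7 in naive and 229, 105 and 176 in d35 libraries. The count of rises was 5 on dropping naive replicate 1 or d35 replicate 1 and 4 on dropping naive replicate 2, and over the other settings 5 to 9 rose and 0 to 2 fell. Tlr2 and Nlrp3 fell, with log2 differences of -0.32 and -0.55. Tlr2 was not called without naive replicate 2 or 3 or d35 replicate 1 or 3 (adjusted p = 0.0827, 0.0729, 0.0597 and 0.0563), and Nlrp3 was not called without naive replicate 2 or 3 or d35 replicate 1, 2 or 3 (adjusted p = 0.126, 0.0947, 0.0961, 0.0728 and 0.0793).

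Of 16 genes of apoptotic cell uptake 2 rose and 2 fell (median -0.06), so 25.0% were called, against 16.2% of all tested genes. Mfge8, which encodes a bridge between dying cells and integrins, was at 19.3, 21.8 and 19.99 in naive and 252, 63.1 and 111 in d35 libraries (log2 difference 2.51). Elmo1, an engulfment adaptor gene, was at 158, 155 and 157 in naive and 122, 133 and 126 in d35 libraries (log2 difference -0.30), and was not called with the length trend removed, at -0.14 (adjusted p = 0.165). Tgm2, a transglutaminase gene, rose by 0.45 and was not called without naive replicate 1, 2 or 3 or d35 replicate 1 (adjusted p = 0.0931, 0.0716, 0.112 and 0.0697). Lrp1, which encodes an endocytic receptor, had a difference of -0.29 and was not called without naive replicate 1, 2 or 3 or d35 replicate 1 or 3 (adjusted p = 0.124, 0.137, 0.058, 0.118 and 0.12), and its log2 difference was -0.06 with the length trend removed (adjusted p = 0.583). In that list 1 or 2 members rose and 1 to 4 fell over the other settings. The receptor genes Mertk and Axl and the GTPase gene Rac1 had log2 differences of -0.03, 0.03 and 0.07 and did not pass.

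**Figure D4:**
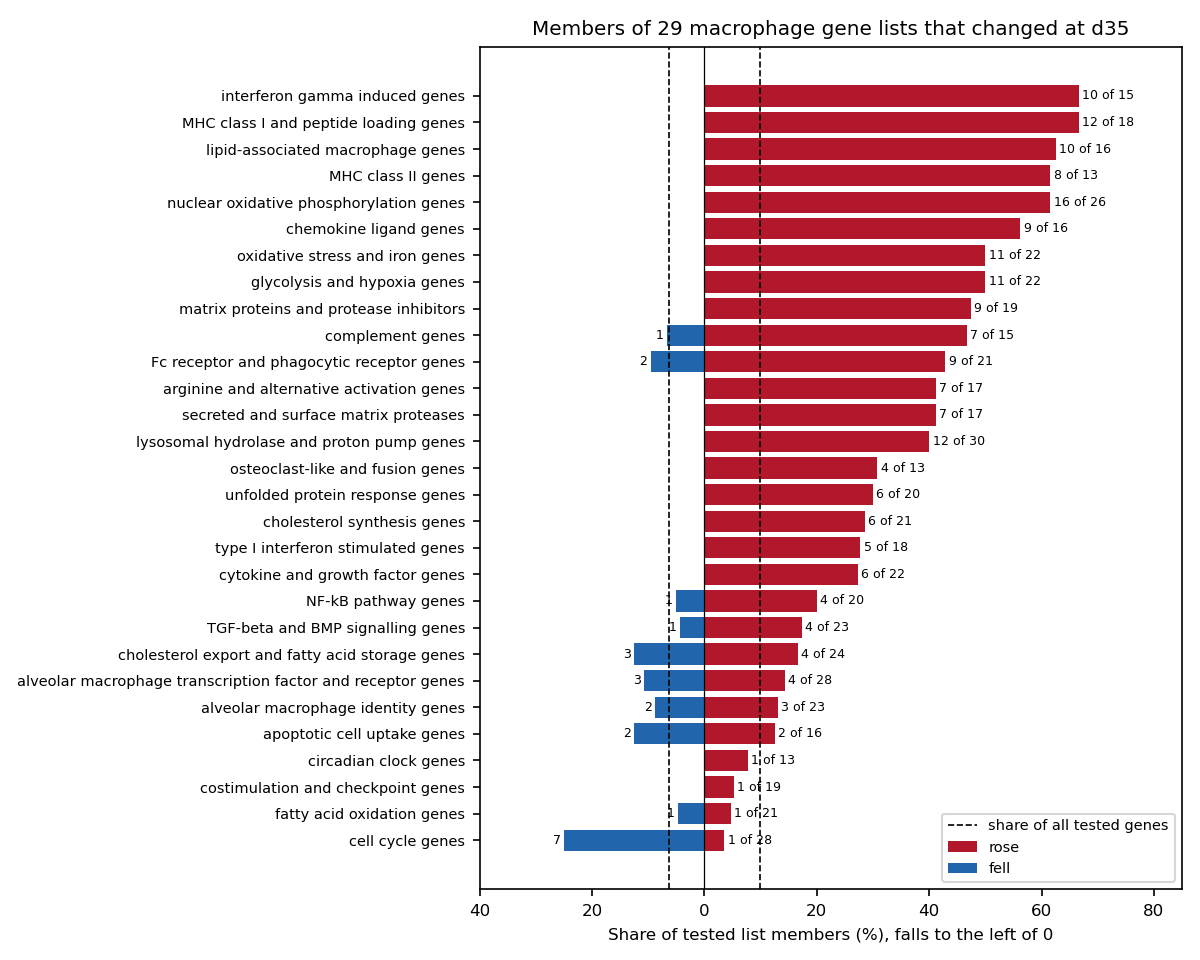
Bars give the share (%) of the tested members of 29 macrophage gene lists that rose (red, to the right) or fell (blue, to the left) at d35, with the counts printed beside them. Dashed lines mark the share of all tested genes, 9.86% for rises and 6.32% for falls, and interferon gamma induced genes (10 of 15) and class I genes (12 of 18) had the largest shares of rises.

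Genes that identify alveolar macrophages rose in 3 of 23 and fell in 2, with a median of 0.04. Called members made up 21.7% of the list, against 16.2% of all tested genes. Carbonic anhydrase 4 (Car4) was at 439, 679 and 641 in naive and 848, 1018 and 859 in d35 libraries and was not called without naive replicate 1 (adjusted p = 0.0525). Ear2 rose by 0.35 and was not called without naive replicate 1 or 2 or d35 replicate 2 or 3 (adjusted p = 0.0919, 0.13, 0.0625 and 0.104), and its log2 difference was -0.06 with the length trend removed (adjusted p = 0.75). The third was Ctsk. Siglecf, with values given above, fell by 0.29 on the log2 scale and was not called without naive replicate 1, 2 or 3 or d35 replicate 1 or 3 (adjusted p = 0.102, 0.0611, 0.0864, 0.0902 and 0.0877). Cidec, a lipid droplet gene, was at 586, 441 and 484 in naive and 346, 409 and 359.6 in d35 libraries and was not called without naive replicate 1 or 3 or d35 replicate 1 or 3 (adjusted p = 0.0666, 0.0532, 0.0673 and 0.0634). Marco, Fabp1, Krt79, Abcg1 and Siglec1 had log2 differences of -0.27, -0.33, -0.22, -0.29 and -0.30 and did not pass. Among members given with other lists, Chil3, Atp6v0d2 and Fabp4 had positive and Mrc1 and Lpl negative differences, without passing. The d35 libraries lay wholly above the naive ones for 7 of the 23 members and wholly below for 6. Over all tested genes these shares were 20.7% and 15.9%. The rises numbered 1 on dropping naive replicate 1, and the falls 0 on dropping naive replicate 1 or 3 or d35 replicate 1 or 3, 1 on dropping naive replicate 2 and 7 on dropping d35 replicate 2. Over the other settings 1 to 5 rose and 0 to 4 fell, so which direction had more calls depended on the setting. Ear1 and Ear2 are close copies, so their separate values are uncertain.

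Among transcription factors and receptors that shape alveolar macrophages 4 of 28 rose and 3 fell (median -0.16). The share called was 25.0%, against 16.2% of all tested genes. The M-CSF receptor gene Csf1r was at 456, 457 and 387 in naive and 721, 568 and 624 in d35 libraries. Bhlhe41, which encodes a transcription factor that supports self-renewal of alveolar macrophages, was at 52, 85.9 and 60.9 in naive and 35.7, 45.3 and 39.8 in d35 libraries (log2 difference -0.68) and was not called without d35 replicate 1 (adjusted p = 0.0569). Klf10, a Kruppel-like factor gene, was at 515, 515 and 544 in naive and 389, 434 and 378 in d35 libraries, and Ets1 was the third fall. Pparg had a log2 difference of -0.10 and the GM-CSF receptor chain genes Csf2ra and Csf2rb of 0.06 and 0.07, without passing. The rises numbered 2 on dropping naive replicate 1, and the falls 5 on dropping d35 replicate 2. In that list 2 to 4 rose and 3 to 5 fell over the other settings.

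Glycolysis and hypoxia genes rose in 11 of 22 and none fell, with a median of 0.27, and 9 to 11 were called without single libraries. Phosphoglycerate mutase (Pgam1) was at 35.9, 35.1 and 34.9 in naive and 67.8, 52.3 and 62.6 in d35 libraries (log2 difference 0.76, adjusted p = 0.00132). The glucose transporter gene Slc2a1 was at 23.9, 28.8 and 31.5 in naive and 73.6, 42.6 and 58.7 in d35 libraries. Lactate dehydrogenase (Ldha) was at 816, 826 and 865 in naive and 1152, 1011 and 1086 in d35 libraries. The glycolytic genes Tpi1, Pgk1, Eno1 and Pkm rose by 0.38, 0.54, 0.53 and 0.42, and the lactate exporter gene Slc16a3 by 0.49. Several of these genes have processed pseudogenes, which can share reads with them. The hypoxia regulator Hif1a and its targets Bnip3 and Vegfa had log2 differences of 0.13, -0.04 and -0.06 and did not pass.

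Nuclear genes of the respiratory chain rose in 16 of 26 and none fell, with a median of 0.44. Uqcrh, a complex III subunit gene, was at 26.7, 25.5 and 29.3 in naive and 40.8, 37.5 and 45.1 in d35 libraries (log2 difference 0.58), and its log2 difference was 0.28 with the length trend removed (adjusted p = 0.0495). Sdhb, of complex II, was at 117, 132 and 139.6 in naive and 184, 165 and 203 in d35 libraries (log2 difference 0.50). The count was 6 on dropping naive replicate 1, 5 on dropping naive replicate 2 and 8 on dropping d35 replicate 3, 8 after removal of the trend with transcript length and 10 without an intensity trend. The change also followed transcript length. The median log2 difference was 0.18 in the shortest of 5 equal bins by exon length and -0.15 in the longest, with 485 rises and 52 falls in the shortest and 75 rises and 321 falls in the longest. The 7 mitochondrially encoded mRNAs tested had a median of 0.00, and none passed.

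Ribosomal protein genes, also short and with many near-identical copies, rose in 8 of 24 (median 0.35). That count was 0 on dropping naive replicate 1 or 2, 5 on dropping naive replicate 3, 4 on dropping d35 replicate 1, 21 on dropping d35 replicate 2 and 2 on dropping d35 replicate 3, 2 after removal of the length trend and 15 by DESeq2. Beyond that removal, the part of transcript length in these counts was not tested.

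Fatty acid oxidation genes had 1 rise and 1 fall in 21, and over the other settings 0 to 3 rises and 0 or 1 falls. With 9.52% called, the list lay below the 16.2% of all tested genes. Acaa2, a thiolase gene, had a log2 difference of 0.32 and was not called without naive replicate 1 or 2 or d35 replicate 1 or 3 (adjusted p = 0.058, 0.082, 0.062 and 0.0512), and its log2 difference was 0.07 with the length trend removed (adjusted p = 0.564). Cpt1a, which encodes the entry enzyme of mitochondrial oxidation, had a difference of -0.30 and was not called without naive replicate 1, 2 or 3 or d35 replicate 3 (adjusted p = 0.0982, 0.0768, 0.0711 and 0.0818). Cholesterol synthesis genes rose in 6 of 21 (median 0.30). Mevalonate decarboxylase (Mvd) was at 67.9, 76.7 and 56.8 in naive and 96.5, 101 and 88.5 in d35 libraries and was not called with the length trend removed, when its log2 difference of 0.51 was 0.30 (adjusted p = 0.131). The count of these rises was 1 on dropping naive replicate 2 or d35 replicate 1, 2 on dropping naive replicate 3 and 3 on dropping d35 replicate 2. In cholesterol export and fatty acid storage 4 of 24 rose and 3 fell (median -0.05). The cholesterol exporter gene Abca1 fell, at 114, 156 and 121 in naive and 103, 101 and 93.6 in d35 libraries, and was not called without naive replicate 2 or 3 or d35 replicate 1 or 3 (adjusted p = 0.0998, 0.0589, 0.0632 and 0.103). Rises in that list numbered 2 on dropping naive replicate 1 or 3 or d35 replicate 1 and 1 on dropping naive replicate 2, and falls 1 on dropping naive replicate 1 or 2 or d35 replicate 3, 0 on dropping naive replicate 3 or d35 replicate 1 and 5 on dropping d35 replicate 2. Over the other settings 2 to 4 rose and 0 to 4 fell.

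Oxidative stress and iron genes rose in 11 of 22 and none fell, with a median of 0.39. Heme oxygenase 1 (Hmox1) was at 133, 138 and 123 in naive and 229, 196 and 185 in d35 libraries (log2 difference 0.62, adjusted p = 0.00212), and its log2 difference was 0.40 with the length trend removed (adjusted p = 0.0318). The cystine transporter gene Slc7a11 was at 5.93, 10.04 and 6.41 in naive and 43.5, 18.8 and 27.6 in d35 libraries (log2 difference 1.82). Peroxiredoxin 1 (Prdx1) was at 924, 980.4 and 1076 in naive and 1525, 1469 and 1529.5 in d35 libraries, with its 3 d35 libraries close together. Ferritin heavy chain (Fth1) was at 6103, 6734 and 7255 in naive and 10673, 9204 and 11617 in d35 libraries and was not called after quantile normalization. That method gives genes of equal rank the same value in every library. It left Fth1 no difference between the groups, so its result does not bear on this rise. The regulators Keap1 and Bach1 had log2 differences of -0.02 and 0.06 and the glutathione synthesis genes Gclc and Gclm of -0.15 and 0.14, without passing. Without single libraries 8 to 14 members were called.

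Of 20 genes of the unfolded protein response 6 rose and none fell (median 0.20), and 3 rose and 2 fell after removal of the length trend. Manf, which encodes a protein of the endoplasmic reticulum, was at 85.8, 74.5 and 74.4 in naive and 131, 109 and 138 in d35 libraries (log2 difference 0.68). The stress transcription factor gene Atf4 had a log2 difference of -0.13 and the stress genes Asns, Chac1 and Trib3 of -0.55, -0.66 and -0.50, and none passed. Of 15 heat shock genes 4 rose (median 0.32). The cochaperone gene Dnaja1 was at 52.7, 45.6 and 46.8 in naive and 66.3, 78 and 111 in d35 libraries. That count was 2 on dropping naive replicate 2 or d35 replicate 3 and 1 on dropping naive replicate 3, and 2 to 4 over the other settings.

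Of 28 cell cycle genes 7 fell and 1 rose, with a median of -0.11. Among the replication helicase genes, Mcm6 was at 141, 147 and 166 in naive and 111, 113 and 85.3 in d35 libraries and Mcm7 at 60.6, 62.8 and 62.9 in naive and 47.5, 48.8 and 39.5 in d35 libraries. Ribonucleotide reductase (Rrm2) was at 73.7, 73.8 and 77.9 in naive and 53.8, 56.5 and 39.9 in d35 libraries. Topoisomerase 2A (Top2a) was at 91.2, 84.7 and 82.4 in naive and 64.5, 61.3 and 40.1 in d35 libraries. In these 4 genes d35 replicate 3 was the lowest library and the groups did not overlap. Mcm6 was not called without naive replicate 2 or 3 (adjusted p = 0.058 and 0.0632), and Mcm7 was not called without naive replicate 2 (adjusted p = 0.0553). Rrm2 was not called without naive replicate 2 or 3 (adjusted p = 0.0529 and 0.0513), and Top2a was not called without naive replicate 1 or 2 (adjusted p = 0.0627 and 0.0633). Cyclin B2 (Ccnb2) rose, at 38.6, 42.8 and 40.9 in naive and 66.3, 61.1 and 78 in d35 libraries (log2 difference 0.73, adjusted p = 0.00407), and its log2 difference was 0.48 with the length trend removed (adjusted p = 0.0204). The proliferation marker Mki67 had a log2 difference of -0.41, Cdk1 of -0.06 and Pcna of -0.08, and none of them passed. The count of falls was 0 on dropping naive replicate 2, 2 on dropping naive replicate 3 and 4 on dropping d35 replicate 3, and 2 genes rose without d35 replicate 2.

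In the NF-kB list 4 of 20 rose and 1 fell (median 0.16), and over the other settings 2 to 5 rose and 0 to 2 fell. That is 25.0% called, against 16.2% of all tested genes. The kinase gene Ikbke was at 4.08, 5.18 and 4.15 in naive and 29.7, 12.4 and 18.4 in d35 libraries (log2 difference 1.87). Tnip3, an NF-kB inhibitor gene, was at 0.992, 5.74 and 4.22 in naive and 39, 10.3 and 13.8 in d35 libraries, with naive replicate 1 well below the other naive libraries. Rel fell by 0.41 on the log2 scale and was not called without naive replicate 1, 2 or 3 or d35 replicate 1 or 3 (adjusted p = 0.0522, 0.165, 0.075, 0.117 and 0.137). The subunit genes Nfkb1, Rela and Relb had log2 differences of -0.08, -0.13 and 0.09 and did not pass, nor did the feedback genes Nfkbia and Tnfaip3 at 0.22 and -0.10. In the TGF-beta list 4 of 23 rose and 1 fell (median -0.04), or 21.7% called, against the same 16.2%. Besides Inhba, Ltbp3, a binding protein gene of latent TGF-beta, was at 0.756, 1.45 and 1.71 in naive and 17.4, 7.62 and 8.43 in d35 libraries. Bmpr2, a BMP receptor gene, had a difference of -0.40 and was not called without naive replicate 1, 2 or 3 or d35 replicate 1 or 3 (adjusted p = 0.0785, 0.162, 0.108, 0.111 and 0.141), and its log2 difference was -0.17 with the length trend removed (adjusted p = 0.266). Rises in the TGF-beta list numbered 2 on dropping naive replicate 1 or 2 or d35 replicate 1, and over the other settings 2 to 4 rose and 0 to 3 fell.

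Of 13 circadian clock genes 1 rose and none fell (median 0.21), and 0 to 2 rose over the other settings. The share called, 7.69%, was below the 16.2% of all tested genes. Nr1d2, which encodes the clock repressor REV-ERB beta, was at 15.5, 16.1 and 19.7 in naive and 21.4, 21.7 and 23.6 in d35 libraries and was not called without naive replicate 1 or 2 or d35 replicate 1, 2 or 3 (adjusted p = 0.122, 0.129, 0.0688, 0.0501 and 0.105). Immediate-early genes, which respond within minutes to tissue handling, fell in 3 of 17 and rose in 1 (median -0.48), or 23.5% called. Jun was at 274, 589 and 553 in naive and 151, 178 and 284 in d35 libraries and was not called without naive replicate 2 or 3 or d35 replicate 1 (adjusted p = 0.0873, 0.0741 and 0.0661). Fos was at 921, 2224 and 1994 in naive and 559, 1279 and 1668 in d35 libraries, and its groups overlapped. Summed over the list, naive libraries were at 5239, 10683 and 10133 and d35 libraries at 3832, 5894 and 8587, and naive replicate 1 stood apart from the other naive libraries. The count of falls was 9 on dropping naive replicate 1, 0 on dropping naive replicate 2 and 1 on dropping naive replicate 3 or d35 replicate 1, and no member rose without naive replicate 2. In that list 1 to 6 fell over the other settings. The sources used here do not say whether handling differed between the groups.

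Monocyte and interstitial macrophage markers summed to 481, 558 and 571 in naive and 979.7, 642 and 851 in d35 libraries. Of 19 tested 9 rose and 1 fell (median -0.10), and the rises numbered 5 on dropping naive replicate 2. Over the other settings 6 to 9 rose and 0 to 2 fell. The rises included the C1q chains and Itgam, which are described above and are part of the sums. The chemokine receptor gene Ccr2 was at 16.5, 16.4 and 15.5 in naive and 67.1, 23.9 and 35.7 in d35 libraries and was not called without naive replicate 2 or 3 (adjusted p = 0.06 and 0.0536). Plac8, Mgst1 and Ms4a7 also rose, by 0.95, 0.33 and 0.65 (adjusted p = 0.0365, 0.0394 and 0.0464 in limma). They were not called in 12 of 21, 9 of 22 and 16 of 22 alternatives. Several other markers of that list did not pass, with log2 differences of -0.32 for Ly6c2, -0.69 for Cx3cr1, -0.21 for Cd163, -0.28 for Lyve1 and -0.30 for F13a1. The part of other macrophages and monocytes in the gene changes was not tested.

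Endothelial markers fell in 9 of 15, none rose, and the median was -0.69. Calcrl, a receptor gene of adrenomedullin and CGRP, was at 166, 171 and 176 in naive and 106, 135 and 96 in d35 libraries (log2 difference -0.62, adjusted p = 0.00605). The VEGF receptor gene Kdr was at 9.67, 12.9 and 7.65 in naive and 3.24, 5.37 and 4.8 in d35 libraries and was not called without naive replicate 2 or d35 replicate 1 (adjusted p = 0.0747 and 0.052). The count was 1 on dropping naive replicate 2, 5 on dropping naive replicate 3 or d35 replicate 1 and 4 on dropping d35 replicate 3. B cell markers, all at low levels, fell in 4 of 5 and summed to 15.4, 19.5 and 12.4 in naive and 4.53, 4.76 and 8.46 in d35 libraries. The median log2 difference over the list was -0.81. Cd79b, a signalling chain gene of the B cell receptor, was at 3.48, 3.79 and 2.28 in naive and 0.607, 0.837 and 1.19 in d35 libraries. That count was 2 on dropping naive replicate 1, 2 or 3 or d35 replicate 1, and none fell when only genes with a mean value of at least 5 were tested. Of 10 fibroblast and smooth muscle markers 2 fell, Col3a1 and Inmt, with log2 differences of -1.04 and -1.20. With Gsn, which rose, 30.0% were called, against 16.2% of all tested genes. Col3a1 was not called without naive replicate 2 or 3 or d35 replicate 1 or 3 (adjusted p = 0.139, 0.109, 0.11 and 0.0977), and Inmt was not called without naive replicate 2 or 3 or d35 replicate 1 or 3 (adjusted p = 0.125, 0.122, 0.11 and 0.0842). The falls numbered 4 on dropping naive replicate 1 or d35 replicate 2 and 0 on dropping naive replicate 2 or 3 or d35 replicate 1 or 3, and 0 to 2 over the other settings. Gsn, which macrophages also express, rose, at 361, 347 and 406 in naive and 620.3, 498 and 520.3 in d35 libraries. It made up most of the fibroblast sums, 382, 395 and 460 in naive and 635, 526 and 539 in d35 libraries. The median log2 difference of that list was -0.55.

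Keratins of simple epithelium, which tumor cells can also express, rose from low values. Krt8 was at 0.118, 0.333 and 0.336 in naive and 18.8, 10.1 and 16 in d35 libraries (log2 difference 3.63). Its partner Krt18 was at 0.185, 0.333 and 0.124 in naive and 18.5, 7.26 and 18.2 in d35 libraries (log2 difference 3.59). Krt7 was at 0.42, 0.679 and 0.477 in naive and 15.6, 7.71 and 15.5 in d35 libraries (log2 difference 3.14). In these 3 genes d35 replicate 2 was the lowest late library and still more than 10 times the highest naive one. The mucin gene Muc1 was at 1.19, 1.62 and 1.96 in naive and 17.2, 5.83 and 21 in d35 libraries, and the homeobox gene Hopx at 5.16, 5.13 and 7.69 in naive and 20.1, 10.5 and 19.2 in d35 libraries. These 5 of 17 epithelial and tumor cell markers rose and 1 fell, and 5 or 6 rose without single libraries. In that list 0 to 2 fell over the other settings. The adhesion gene Epcam fell, at 185, 202 and 216 in naive and 108, 85.9 and 167 in d35 libraries, and was not called without naive replicate 2 or 3 or d35 replicate 1 (adjusted p = 0.069, 0.064 and 0.0554). The surfactant genes Sftpc and Sftpb, the alveolar marker Ager and the keratin gene Krt19 had log2 differences of -0.67, -0.12, -0.76 and -0.23 and did not pass. The whole list summed to 1457, 1461 and 1463 in naive and 1262, 1367 and 1301 in d35 libraries. The 3 keratins that rose were at most 18.8 each and add little to these sums. Krt19 and Cdh1 of this list are also on the list of alveolar macrophage identity genes, so the sums do not measure other cells alone. Whether the keratin transcripts came from macrophages or from other cells in the sort was not tested.

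Of 7 neutrophil markers 2 rose and 1 fell, with a median log2 difference of 0.48 over the list. That is 42.9% called, against 16.2% of all tested genes. The calprotectin gene S100a9 was at 0.0168, 0.161 and 0.265 in naive and 5.92, 0.441 and 2.0 in d35 libraries, from 0 reads in naive replicate 1, and was not called without naive replicate 1, 2 or 3 or d35 replicate 1 or 3 (adjusted p = 0.129, 0.124, 0.0963, 0.108 and 0.109). Its partner S100a8 had a log2 difference of 1.07 and did not pass. The rises numbered 0 on dropping naive replicate 1, 2 or 3 or d35 replicate 1 and 1 on dropping d35 replicate 3, and the falls 0 on dropping naive replicate 1, 2 or 3 or d35 replicate 2 or 3. Over the other settings 0 to 3 rose and 0 to 2 fell. Of 6 T and NK cell markers the interleukin-7 receptor gene Il7r rose, at 1.66, 1.0 and 0.725 in naive and 30.1, 5.89 and 10.9 in d35 libraries, while Cd4, Lck and Gzma had log2 differences of -0.14, -0.28 and -0.14 and did not pass. The share called, 16.7%, was near the 16.2% of all tested genes. The mast cell marker Kit fell, at 6.24, 12.5 and 11.2 in naive and 3.87, 3.27 and 5.58 in d35 libraries, and was not called without naive replicate 2 or 3 or d35 replicate 1 or 2 (adjusted p = 0.117, 0.0948, 0.0763 and 0.0598). No erythrocyte marker passed the filter on low values.

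**Figure D5:**
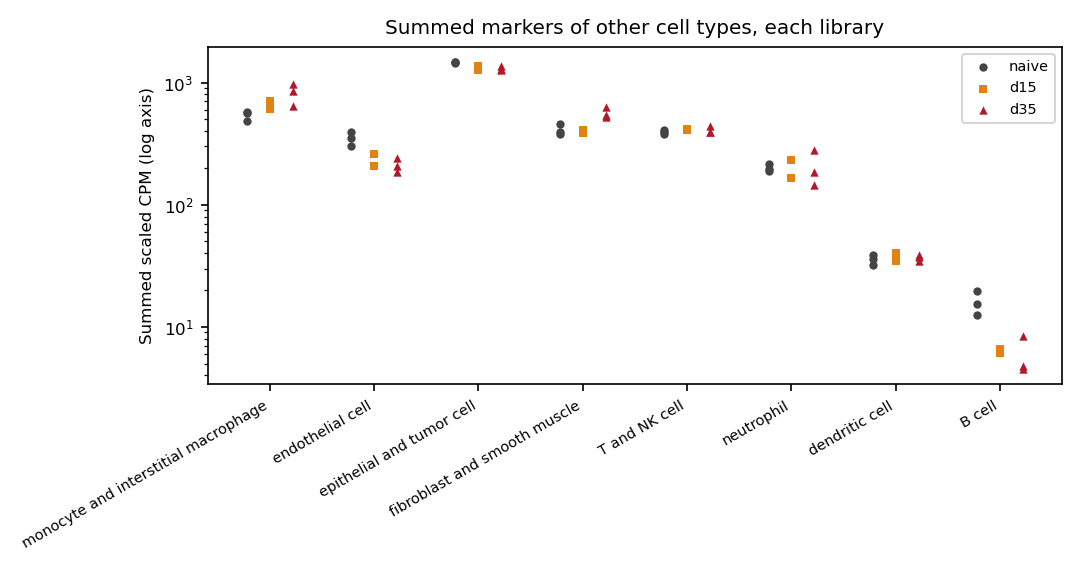
Summed scaled CPM (log axis) of the markers of 8 other cell types in each naive (black circles), d15 (orange squares) and d35 (red triangles) library. Calcrl makes up a large part of the endothelial sums, and Gsn, which macrophages also express, most of the fibroblast sums. The epithelial sums include Krt19 and Cdh1, which are also alveolar macrophage identity genes. Endothelial sums lay between 301 and 396 in naive and between 185 and 239 in d35 libraries. Monocyte and interstitial macrophage sums were higher in every d35 library than in any naive one. These sums contain the C1q chains, Itgam and Ccr2, which rose.

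The 2 libraries labelled d15, from lungs at the earlier time, share the naive libraries as control, so their values are set beside those of d35. Mmp12 was at 80.1 and 66.9 at d15 and Ccl17 at 4.58 and 8.26. Both were higher at d35, with log2 differences d35 minus d15 of 4.99 and 3.26 (adjusted p = 4.73e-05 and 0.000308). Arg1 was at 0.571 and 0.531 at d15, Clu at 2.79 and 2.84 and Spp1 at 915 and 665, and the d35 group exceeded d15 by 5.01, 4.14 and 1.60. The class II gene H2-Eb1 was at 352 and 409.7 at d15, and its d35 minus d15 difference of 0.46 did not pass (adjusted p = 0.44). Ets1, Nav2 and Scml4, which fell against naive, had d35 minus d15 differences of -0.09, -0.18 and -0.04, and none of these passed. Of all tested genes 833 (7.39%) differed between d35 and d15.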

How the data were processed

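RNA-seq of sorted alveolar macrophages was read from 1 deposited table of 12701 genes in 8 libraries, of which 3 naive and 3 d35 libraries were compared. STAR 2.5, edgeR and the build mm10 are named, without roles, per the submitters' processing notes. The sources used here do not name the counting program, its annotation or its use of strand. The deposited values are a signal per gene, reads plus 0.5 divided by a scaled library size in units of 1e6 reads, and every value gave whole reads within 0.001 when this was undone, so depth is known.

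Genes that reached 1 in 2 or more libraries were tested with limma 3.58.1 (R 4.3.3) with an intensity trend on log2(value + 1), which understates changes of low genes. All 8 libraries entered the fit and shared 1 spread estimate, and the 2 d15 libraries served for it and for the contrast d35 minus d15. Benjamini-Hochberg adjustment ran over all 11273 genes, at 0.05. The scripts were tested on simulated counts. Alternatives were edgeR 4.0.16 and DESeq2 1.42.0 on recovered reads, limma-voom, other pseudocounts, filters, scalings and fits, and each library left out. GENCODE M21 gave positions and exon lengths for 12639 genes, and RefSeq the promoter windows. The exon length merges the exons of all isoforms of a gene and was used for the length trend.

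Genes named by rule were the 12 largest called rises and falls whose mean log2 value reached 3, with groups that did not overlap, the 3 members with the smallest adjusted p in each macrophage list, the most abundant member of each marker or quality list, and Siglecf, Itgax, Mertk and Cd68. Other genes were named after their values were seen, and some genes are not reported here. The comparison and the 43 lists, 775 genes of which 669 were tested, were chosen with earlier results of these data known.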

Additional observations from a re-analysis of the deposited data

Results flagged for a closer look

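For 53 of the 113 genes named by rule and considered here, the late and the early tumor libraries differed from each other. The contrast was d35 minus d15 of the same limma fit (adjusted p under 0.05 over all genes). Over all tested genes it passed for 833 (7.39%). Many named genes were picked by their d35 minus naive result, which shares the d35 libraries, so the shares are not comparable. Each value below is the log2 difference d35 minus d15.

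Among secreted and membrane proteases, Mmp12 differed by 4.99, Adamdec1 by 4.51, Adam8 by 3.77, Mmp14 by 2.76 and Ctsk by 1.25. The fusion genes Dcstamp and Ocstamp differed by 4.54 and 3.58. Among matrix proteins and secreted factors, Fam20c differed by 4.32, Spp1 by 1.60, Thbs1 by 1.72, Ltbp3 by 2.21 and Mfge8 by 2.77. The growth factor genes Inhba, Igf1 and Csf1 differed by 2.95, 1.55 and 2.48. The chemokine genes Ccl24, Ccl17 and Ccl9 differed by 4.21, 3.26 and 2.10. The C1q chains C1qa, C1qb and C1qc differed by 3.21, 3.46 and 3.12.

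Among metabolic genes, Arg1 differed by 5.01, Ido1 by 1.81, Pla2g7 by 3.93, Clu by 4.14, Slc7a11 by 1.76, Pgam1 by 0.53, Hmox1 by 0.39, Prdx1 by 0.35 and Tgm2 by 0.59. The lysosomal and endosomal genes Ctse, Cd63, Ctsl, Ctsz and Cd68 differed by 2.28, 1.52, 0.67, 0.52 and 0.38. Class I genes H2-M2, H2-Q7 and H2-K1 differed by 4.42, 0.75 and 0.43, and the interferon genes Usp18 and Gbp2 by 1.34 and 0.70. The transcription factor gene Irf4 differed by 1.77, and the kinase gene Ikbke by 1.98. The receptor and lectin genes Csf1r, Clec4d, Clec4n and Lgals9 differed by 0.65, 1.05, 0.43 and 0.64. Gsn differed by 0.52 and Ccnb2 by 0.62.

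Lower values at d35 than at d15 were seen for 5 of the 53. The clock genes Dbp and Nr1d2 differed by -2.33 and -2.11, the lipid droplet gene Cidec by -0.82 and the replication genes Rrm2 and Mcm7 by -0.66 and -0.59. Dbp was at 0.387, 0.161 and 0.265 in naive and 0.746, 0.867 and 0.51 in d35 libraries and at 7.06 and 8.02 in the d15 libraries, and Nr1d2 was at 95 and 104 in the d15 libraries. The clock genes stood apart in the d15 libraries, and the sources used here do not give the time of day of the harvests.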

How the results depend on the processing

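Each count was recomputed under 22 alternatives. Of the 99 genes named by rule that were called, none changed direction and 70 were called in every alternative. Of the 15 not called, 6 changed sign, among them mt-Cytb and Rpl4. List counts were less stable, and 51 of the 86 moved by over 1.5 times in at least 1 alternative, 42 of them also with all naive and d35 libraries kept. In 8 of the 43 lists the direction with more calls turned in at least 1 alternative. Without single libraries the 1824 changed genes ranged from 635 (without naive replicate 2) to 2294 (without d35 replicate 2), the 1112 rises from 457 to 1346 and the 712 falls from 178 to 948. Without an intensity trend 1207 genes changed and 439 fell. With the length trend removed 680 rose and 1073 genes were shared with the main calls. Tests on recovered reads called 1760 genes (edgeR, 1715 shared) and 2412 (DESeq2). For all changed genes, rises and falls, the alternatives other than single libraries, the missing trend and the length removal stayed within 1.5 times those counts.

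With the replicate number as a block, in a fit of the 6 libraries, 1460 genes changed, with 1346 shared with the main calls. Of the 1460, 881 rose and 579 fell, and Tnip3 was not called (adjusted p = 0.0504). The same 6 libraries without the block gave 1386 changed genes. The deviations of same-numbered naive and d35 libraries correlated at -0.007, -0.046 and 0.147. Only replicate 3 correlated best with its own number. With 3 libraries in each group, these correlations cannot show whether the numbers pair the samples. A gene with few naive reads is limited by depth, and its fitted change depends on the pseudocount.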

Other observations

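Genes outside the lists, chosen after their values were seen, also changed in d35 libraries, and those given here kept an adjusted p under 0.05 in every alternative that tested them. Ptgs1, which encodes cyclooxygenase 1, was at 10.8, 10.3 and 12 in naive and 64.1, 35.1 and 51.7 in d35 libraries (log2 difference 2.05, adjusted p = 0.000107 in limma), and the prostacyclin receptor gene Ptgir was at 8.49, 18.8 and 13.2 in naive and 67.2, 65.7 and 39.8 in d35 libraries (log2 difference 2.04). The secreted phospholipase gene Pla2g2d was at 0.185, 1.35 and 0.265 in naive and 32.5, 8.84 and 16.9 in d35 libraries. Alox5, the lipoxygenase gene that starts leukotriene synthesis, fell, at 666, 663 and 666 in naive and 479, 497 and 455 in d35 libraries (log2 difference -0.48, adjusted p = 0.00144). Its naive libraries were nearly equal, and all d35 libraries lay below them. Ass1 and Gatm, which act next to arginase in arginine metabolism, were at 0.353, 0.778 and 0.512 in naive and 13.1, 4.98 and 8.07 in d35 libraries and at 6.44, 6.04 and 9.98 in naive and 61.1, 46.1 and 42.1 in d35 libraries. The itaconate synthesis gene Acod1 was at 0.219, 1.15 and 0.336 in naive and 9.04, 5.49 and 5.5 in d35 libraries.

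Single genes of other kinds that rose are given next. The heparan sulfate proteoglycan gene Sdc1 was at 0.286, 0.482 and 0.76 in naive and 30.6, 13.1 and 22.2 in d35 libraries (log2 difference 3.86, adjusted p = 4.3e-05), the integrin ligand gene Vcam1 at 0.958, 1.25 and 1.4 in naive and 25.2, 14.6 and 20.6 in d35 libraries, and the semaphorin gene Sema4d at 3.95, 6.46 and 5.0 in naive and 64.4, 26.3 and 39.8 in d35 libraries. The potassium channel gene Kcnn4 was at 0.656, 1.12 and 0.583 in naive and 40.2, 10.4 and 19.7 in d35 libraries and the aminopeptidase gene Anpep at 1.66, 3.1 and 2.17 in naive and 38.6, 12.8 and 34 in d35 libraries. In these genes d35 replicate 2 was the lowest late library and lay above every naive library. The hepatocyte growth factor receptor gene Met was at 1.4, 1.52 and 1.18 in naive and 17.1, 6.41 and 10.9 in d35 libraries and the immunoglobulin transporter gene Pigr at 0.0841, 0.161 and 0.0177 in naive and 7.37, 2.97 and 3.2 in d35 libraries. Which cells carried the last 2 transcripts was not tested. The flagellin receptor gene Tlr5 fell, at 37.1, 32.1 and 38.2 in naive and 13.4, 22.7 and 14.9 in d35 libraries (log2 difference -1.06), as did the niacin receptor gene Hcar2, at 169, 223 and 228 in naive and 128, 144 and 131 in d35 libraries (log2 difference -0.61).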
